A study of Mus musculus with 8 samples.

Results

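The genes described here are 40 members of the machinery that moves a cell through division and copies its DNA: cyclins and their kinases, E2F and Myc transcription factors, origin licensing and replication fork proteins, enzymes that make DNA precursors, and proteins of mitosis. They were taken by name from a table of 54532 genes, and all 40 names were found. The data are RNA sequencing libraries of mouse bone marrow derived macrophages, phagocytes that are grown in culture from marrow cells. The 4 groups are spermine with 3 h of IFN-β, spermine at 0 h, PBS with 3 h of IFN-β and PBS at 0 h, with 2 libraries each. Spermine is a polyamine that cells also make themselves, PBS is the buffer given in its place, and IFN-β is a type I interferon. Neither the doses of spermine and IFN-β, the length of exposure to spermine, nor the strain, sex and age of the mice are stated in the labels. Cells cultured for 3 h in the absence of IFN-β are not among the groups, so an effect of IFN-β and one of the elapsed time cannot be told apart.

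The cell cycle is driven by cyclins, which switch on cyclin-dependent kinases at set points. In G1, D-type cyclins are made in answer to growth factors and, with Cdk4 and Cdk6, help free E2F factors, which then raise genes for DNA synthesis. Origins are licensed when Cdc6 and Cdt1 load the MCM helicase onto DNA, and Pcna later clamps the polymerases to the template. Macrophages in culture divide in answer to their growth factor CSF-1, and type I interferons are known to slow that division.

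Reads rebuilt from the deposited values came to between 15723437 and 17744844 per library. All 7 macrophage markers were present in every library, with summed levels of 13184 to 13315 FPKM in spermine 3 h, 12296 to 12882 FPKM in spermine 0 h, 10593 to 11431 FPKM in PBS 3 h and 11170 to 12185 FPKM in PBS 0 h. The T cell markers Cd3e, Cd3d and Cd3g had no read in any library, nor had Ncr1, Ly6g and Mcpt8. Of the 3 endothelial markers, Kdr moved with IFN-β, at 18.9 and 19.6 FPKM in spermine 3 h and 2.09 and 2.30 FPKM in spermine 0 h, against 37.3 and 36.3 FPKM in PBS 3 h and 2.43 and 2.37 FPKM in PBS 0 h, while Cdh5 and Pecam1 lay between 0.165 and 1.02 FPKM; its part in the results below was not tested. Neutrophil markers summed to between 4.62 and 7.79 FPKM, and those of NK cells, dendritic cells, fibroblasts and mast cells or basophils were below 1 FPKM. The 5 markers of myeloid progenitors, the dividing precursors of these cells, were each below 1 FPKM in every library. In bulk RNA fewer cells of a type and less RNA per cell cannot be told apart. Whether the 2 libraries of a group stand for different animals, cultures or only preparations is not said in the labels, and the p-values rest on that spread alone, which may be technical.

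The members' levels were low for most of the mitotic genes and high for a few replication genes. Levels are in FPKM, fragments scaled by gene length and a library factor, and can therefore be compared between genes. Over the 8 libraries, 5 members averaged at least 10 FPKM, 20 averaged between 1 and 10 FPKM and 15 averaged below 1 FPKM. The median member stood at 1.52 FPKM, against 5.70 FPKM for the median of the 11421 genes tested. Pcna, the sliding clamp, averaged 155 FPKM and was followed by the helicase subunit Mcm6 at 25.3 FPKM, the licensing factor Cdt1 at 18.0 FPKM, the kinase Cdk4 at 16.1 FPKM and the kinase inhibitor Cdkn1b at 10.1 FPKM. At the other end, Tyms averaged 0.27 FPKM and Cdc6 averaged 0.16 FPKM, and Cdc6 had as few as 3 reads in a library. The summed level of the 40 members was 391 ± 0.142 FPKM in spermine 3 h, 259 ± 3.34 FPKM in spermine 0 h, 312 ± 7.72 FPKM in PBS 3 h and 218 ± 2.56 FPKM in PBS 0 h (SD, n = 2 each). The FPKM total of all genes differed up to 1.63-fold between libraries, so this order depends on the scale. As a share of rebuilt reads, the members averaged 0.105% in spermine 3 h, 0.0895% in spermine 0 h, 0.108% in PBS 3 h and 0.105% in PBS 0 h. Pcna made up 62.4% and 62.1% of the members' summed FPKM in spermine 3 h, 56.6% and 55.7% in spermine 0 h, 47.8% and 45.6% in PBS 3 h, and 39.96% and 39.7% in PBS 0 h. Since 1 gene makes up so much of the sum, the members are described by role below.

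**Figure D1:**
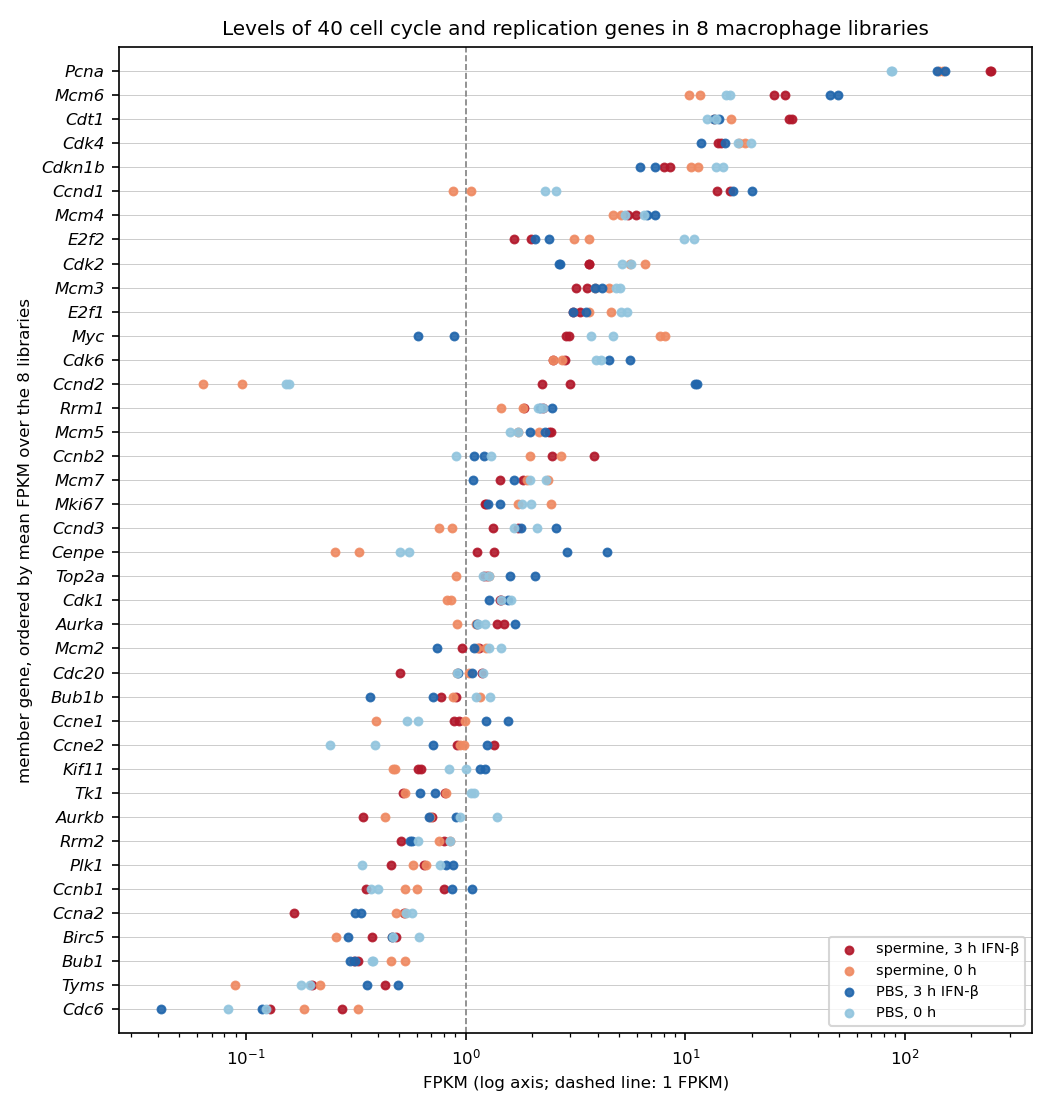
FPKM (log axis) of the 40 genes in each of the 8 libraries, ordered by mean FPKM, with 1 point per library coloured by group and a dashed line at 1 FPKM. Pcna stands at the top with a mean of 155 FPKM, and 15 members average below 1 FPKM. On this axis Ccnd1, Ccnd2, Cenpe and Myc have widely separated groups.

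Promoters of these genes share sequence words that many cell cycle genes are known to carry. E2F sites are bound by E2F factors, while CHR elements and CCAAT boxes are common in promoters of mitotic genes. RefSeq windows on GRCm38.p6, from 250 bases before to 50 bases after a gene's start, were matched for 33 of the 40 members. An E2F site (TTTGGCGC, TTTCCCGC, TTTCGCGC or TTTGCCGC on either strand) was present for 9 of the 33, or 27.3%, against 2.60% of all genes with a window. These were Cdc6, Cdk1, Cdk2, Cdt1, E2f2, Mcm3, Mcm5, Mcm6 and Mcm7, so 6 of the 8 licensing and fork genes with a window. A CHR (TTTGAA or TTCGAA on either strand) was present for 13 of the 33, or 39.4%, against 21.7% of all genes, and 10 of those 13 were among the 13 mitotic genes with a window. A CCAAT box (CCAAT on either strand) was present for 24 of the 33, or 72.7%, against 41.1% of all genes, and for 12 of the 13 mitotic genes. The E-box CACGTG, a word that Myc with its partner Max can bind, was present for Cdk4, Cdk6 and Tyms, or 9.09% against 8.09% of all genes. Of words bound by interferon-activated factors, which were added after the values were seen, GAAA followed after any 2 bases by GAAA was present for Bub1b, or 3.03% against 3.99% of all genes. TTCNNNGAA was present for Mcm5, or 3.03% against 9.55% of all genes. A word in a window is a match of letters and no evidence of binding. Shown here are the windows of Mcm6, whose level differed in all pairwise comparisons, of its partner subunit Mcm5, which passed in none, of Cdt1, and of the mitotic genes Cenpe and Top2a, with E2F, CHR and CCAAT words on either strand in capitals and overlapping matches merged.
Mcm6, chr1:128359656-128359955, minus strand: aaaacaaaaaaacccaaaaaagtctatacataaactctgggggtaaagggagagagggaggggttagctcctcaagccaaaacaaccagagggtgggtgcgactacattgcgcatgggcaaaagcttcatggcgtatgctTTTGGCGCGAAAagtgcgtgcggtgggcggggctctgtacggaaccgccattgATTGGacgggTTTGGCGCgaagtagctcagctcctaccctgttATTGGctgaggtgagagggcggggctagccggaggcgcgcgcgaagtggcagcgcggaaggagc
Mcm5, chr8:75109259-75109558, plus strand: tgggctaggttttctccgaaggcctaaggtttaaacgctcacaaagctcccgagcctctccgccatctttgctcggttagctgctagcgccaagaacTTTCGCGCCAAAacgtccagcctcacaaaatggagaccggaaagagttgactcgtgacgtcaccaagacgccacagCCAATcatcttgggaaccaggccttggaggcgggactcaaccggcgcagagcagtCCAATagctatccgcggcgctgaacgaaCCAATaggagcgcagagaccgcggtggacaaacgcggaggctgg
Cdt1, chr8:122567765-122568064, plus strand: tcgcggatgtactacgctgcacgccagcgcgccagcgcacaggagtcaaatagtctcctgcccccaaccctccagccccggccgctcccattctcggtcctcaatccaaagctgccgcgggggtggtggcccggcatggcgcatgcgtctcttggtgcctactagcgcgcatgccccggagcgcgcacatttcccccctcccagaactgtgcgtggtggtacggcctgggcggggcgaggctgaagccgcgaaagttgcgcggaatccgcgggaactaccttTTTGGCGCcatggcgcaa
Cenpe, chr3:135212313-135212612, plus strand: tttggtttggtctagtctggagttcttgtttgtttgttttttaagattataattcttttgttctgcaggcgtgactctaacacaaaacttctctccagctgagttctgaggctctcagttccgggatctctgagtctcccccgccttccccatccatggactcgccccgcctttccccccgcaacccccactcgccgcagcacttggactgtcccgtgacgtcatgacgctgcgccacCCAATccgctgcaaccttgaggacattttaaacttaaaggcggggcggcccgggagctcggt
Top2a, chr11:99024140-99024439, minus strand: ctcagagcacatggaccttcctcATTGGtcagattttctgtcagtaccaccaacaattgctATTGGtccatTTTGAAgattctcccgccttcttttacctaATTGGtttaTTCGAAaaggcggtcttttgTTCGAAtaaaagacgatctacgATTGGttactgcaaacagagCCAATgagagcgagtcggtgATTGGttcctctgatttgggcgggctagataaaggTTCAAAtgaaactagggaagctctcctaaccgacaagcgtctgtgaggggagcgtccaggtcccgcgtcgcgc
Mcm6 and Mcm5 each carry overlapping E2F words in opposite orientation together with CCAAT boxes, although their levels moved differently, as given below. Cdt1 has its E2F word 33 bases after its start, Top2a has several CCAAT boxes and CHR words, and Cenpe has a CCAAT box but neither of the other words.

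The test was limma on log2(FPKM + 1) for genes that reached 1 FPKM in 2 libraries or more, and a gene is said to have risen or fallen where its Benjamini-Hochberg adjusted p over all 11421 genes was below 0.05. This kept 31 of the 40 members. Ccna2, Ccnb1, Cdc6, Rrm2, Tyms, Aurkb, Plk1, Bub1 and Birc5 fell below the filter, and none of the 9 passed in a fit without it. Members such as Ccnd2, Ccne1, Ccne2, Cenpe, Tk1, Kif11 and Bub1b passed the filter only through libraries in which they were high. A count over tested members is therefore no count over all members.

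A large share of all genes moved in this experiment, and the members did so about as often. With IFN-β in spermine, 8 members rose and 5 fell, which is 41.9% of those tested, against 41.7% of all genes tested (19.7% up and 22.1% down). With IFN-β in PBS, 7 rose and 7 fell, or 45.2% against 49.6% of all genes (24.6% up and 25% down). Spermine at 3 h raised 5 members and lowered 5, or 32.3% against 40.5% (19.9% up and 20.6% down). Spermine at 0 h raised 4 and lowered 8, or 38.7% against 41.2% (22% up and 19.2% down). The IFN-β response itself differed between spermine and PBS for 4 members, or 12.9% against 13.6%. The members' median log2 change was 0.11 with IFN-β in spermine and 0.05 with IFN-β in PBS, where the median of all genes was -0.01 and -0.02. It was -0.04 for spermine at 3 h and -0.12 for spermine at 0 h, where all genes had medians of -0.00 and 0.01. The members' shares are thus near or below those of all genes, and single members moved far in opposite directions. On the deposited scale 21 members passed in at least 1 pairwise comparison, and 10 tested members passed in none: Cdc20, Mcm2, Mcm3, Mcm4, Mcm5, Mcm7, Rrm1, Tk1, Aurka and Top2a. The share of all genes that passed in at least 1 is not given. These counts therefore cannot be read as a trait of the members.

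The direction of these counts depends on the scale. The deposited FPKM hold the median gene steady, and rescaling each library to a fixed sum (TPM) moves the median of all genes by -0.33 with IFN-β in spermine, -0.46 with IFN-β in PBS, -0.20 for spermine at 3 h and -0.34 for spermine at 0 h on the log2 scale. On the TPM scale the counts up and down become 6 and 9 with IFN-β in spermine, 6 and 14 with IFN-β in PBS, 4 and 10 for spermine at 3 h, and 3 and 14 for spermine at 0 h. The share of all genes that passed on the TPM scale is not given, so these counts cannot be read as a trait of the members. This holds for every TPM count below. No member that passed changed its direction under any alternative, but members near 0 can pass downward on the TPM scale, and these are named with their role below, apart from Ccnd1 (-0.48) and E2f2 (-0.43) with spermine at 3 h, Cdk1 with IFN-β in PBS (-0.49) and Cenpe with spermine at 0 h (-0.70).

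**Figure D2:**
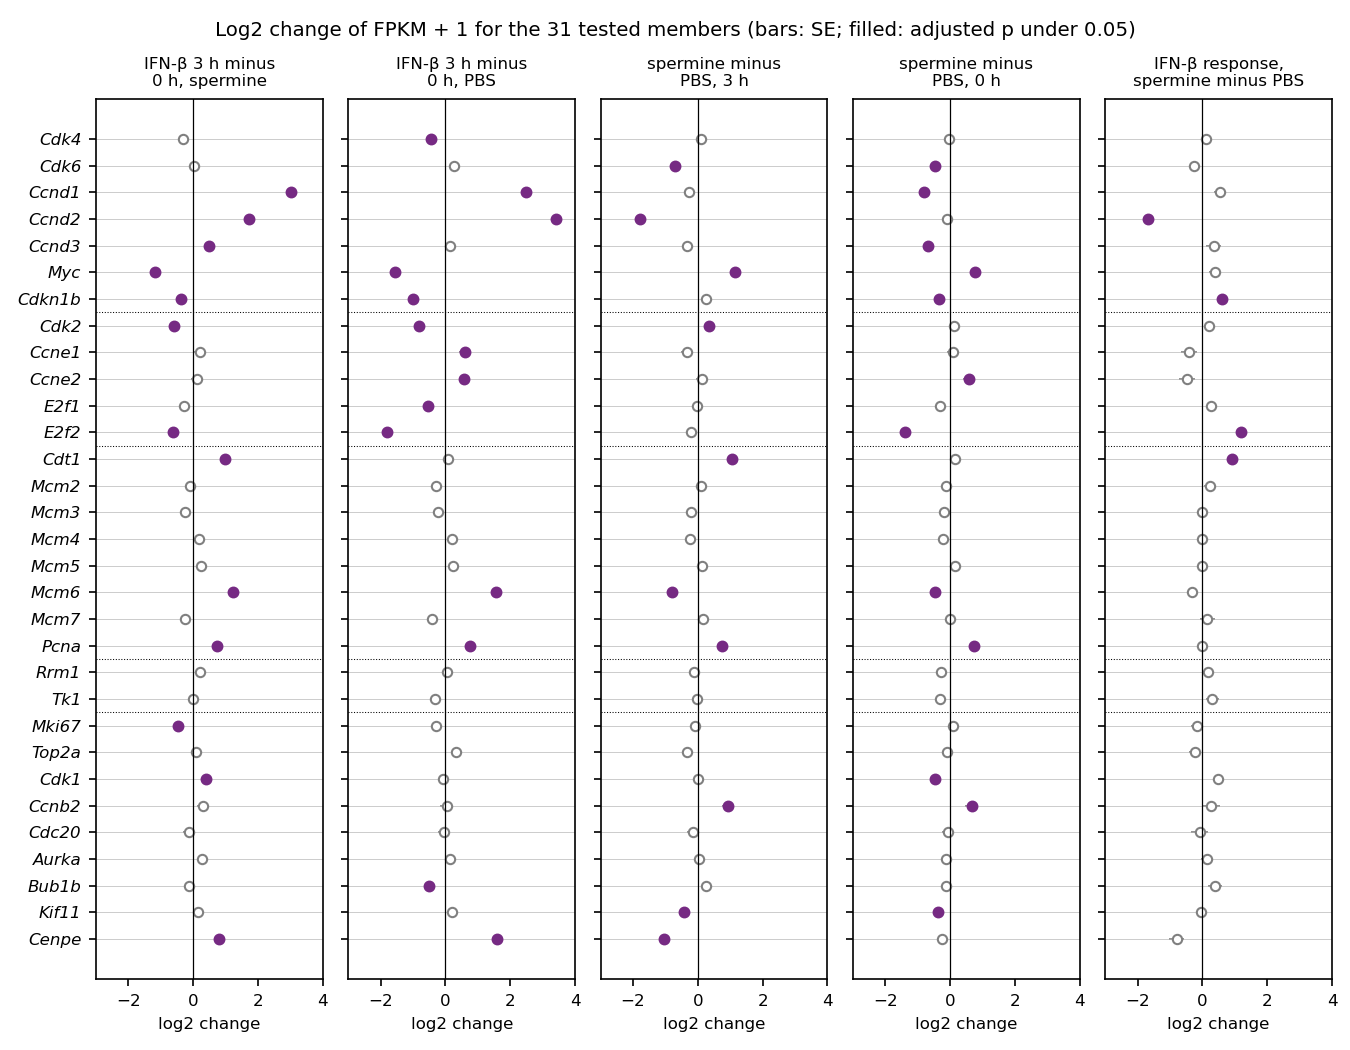
Log2 change of FPKM + 1 for the 31 tested members, by role from G1 genes at the top to mitotic genes at the bottom, in the 5 comparisons named above each panel; bars are standard errors and filled points have an adjusted p under 0.05. Ccnd1, Ccnd2, Mcm6 and Pcna lie to the right in both IFN-β panels, E2f2, Myc, Cdk2 and Cdkn1b lie to the left, and on this scale most helicase subunits stay near 0.

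Among the 7 growth factor responsive G1 genes, the cyclins Ccnd1 and Ccnd2 rose with IFN-β in each treatment, while Myc and Cdkn1b fell. Ccnd1, which encodes cyclin D1 (chr7:144929931-144939925 on GRCm38, as for all genes below, minus strand), had 13.9 and 15.9 FPKM in spermine 3 h and 1.06 and 0.876 FPKM in spermine 0 h, against 16.5 and 19.98 FPKM in PBS 3 h and 2.31 and 2.57 FPKM in PBS 0 h. Every 3 h library stood above every 0 h library, and the spermine 0 h libraries were the lowest of all. It was 15.4-fold higher at 3 h than at 0 h in spermine (log2 change 3.01 ± 0.12 SE, adjusted p = 2.22e-06) and 7.47-fold higher in PBS (2.48 ± 0.12, adjusted p = 4.17e-06). Spermine lowered it 2.52-fold at 0 h (log2 change -0.80 ± 0.12, adjusted p = 0.00202), and at 3 h the log2 difference of -0.27 did not pass (adjusted p = 0.109). In the annotation LTO1 overlaps Ccnd1 on the other strand. No level was found under that name, so its share of the reads is not known.

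Ccnd2, which encodes cyclin D2 (chr6:127125162-127152193, minus strand), had 2.22 and 2.99 FPKM in spermine 3 h and 0.0963 and 0.0643 FPKM in spermine 0 h, against 11.1 and 11.3 FPKM in PBS 3 h and 0.153 and 0.158 FPKM in PBS 0 h. Its reads numbered 292 and 417 in spermine 3 h, 15 and 11 in spermine 0 h, 1456 and 1722 in PBS 3 h, and 33 and 30 in PBS 0 h. The gene was nearly silent at 0 h in both treatments, and no libraries of different groups overlapped. Ccnd2 reached 1 FPKM only in 3 h libraries, so it entered the test through the groups in which it was high. Mean FPKM was 32.4-fold higher with IFN-β in spermine and 72.0-fold higher with IFN-β in PBS, which the + 1 compresses to log2 changes of 1.73 ± 0.12 (adjusted p = 4.35e-05) and 3.40 ± 0.12 (adjusted p = 9.11e-07). At 3 h it was 4.31-fold lower in spermine than in PBS (log2 change -1.77 ± 0.12, adjusted p = 8.33e-05). Antisense genes that overlap Ccnd2 were at most 0.167 FPKM.

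Ccnd3, which encodes cyclin D3, had 1.74 and 1.34 FPKM in spermine 3 h and 0.757 and 0.871 FPKM in spermine 0 h, against 1.79 and 2.58 FPKM in PBS 3 h and 1.67 and 2.12 FPKM in PBS 0 h. Only the spermine 0 h libraries stood below the other groups. It fell with spermine at 0 h (log2 change -0.67 ± 0.16, adjusted p = 0.0142) and rose with IFN-β in spermine (0.48 ± 0.16, adjusted p = 0.0468). The fall was lost without spermine 0 h replicate 1 (log2 change -0.62) or PBS 0 h replicate 2 (-0.56). The rise was lost in 6 of the 8 fits that each leave out a library, those without any 1 of the 4 spermine libraries or the 2 PBS 0 h libraries (between 0.37 and 0.60), and also without the filter, on the TPM scale and under quantile normalization. Bysl, at up to 3.03 FPKM, overlaps Ccnd3 on the other strand, and since strand is not stated, reads of the 2 genes cannot be told apart.

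Cdk4 and Cdk6 are the kinases that D-type cyclins activate. Cdk4, at 14.5 and 14.1 FPKM in spermine 3 h and 17.5 and 18.7 FPKM in spermine 0 h, against 11.8 and 15.1 FPKM in PBS 3 h and 19.9 and 17.4 FPKM in PBS 0 h, fell with IFN-β in PBS (log2 change -0.45 ± 0.12, adjusted p = 0.0198). That call did not hold without PBS 3 h replicate 1 (-0.28) or PBS 0 h replicate 1 (-0.36) or with only the 2 groups compared, and Tspan31, at up to 27.2 FPKM, overlaps Cdk4 on the other strand. On the TPM scale Cdk4 also fell with IFN-β in spermine (-0.66, adjusted p = 0.00513). Cdk6 had 2.85 and 2.50 FPKM in spermine 3 h and 2.76 and 2.51 FPKM in spermine 0 h, against 5.58 and 4.48 FPKM in PBS 3 h and 3.92 and 4.12 FPKM in PBS 0 h. All 4 spermine libraries lay below all 4 PBS libraries. Cdk6 was 1.88-fold lower with spermine at 3 h (log2 change -0.71 ± 0.11, adjusted p = 0.00271) and 1.53-fold lower at 0 h (-0.47 ± 0.11, adjusted p = 0.0145). The call at 0 h was lost without spermine 0 h replicate 2 (-0.42), PBS 0 h replicate 1 (-0.50) or PBS 0 h replicate 2 (-0.44).

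Myc, a transcription factor that drives cell growth (chr15:61985391-61990374, plus strand), had 2.94 and 2.85 FPKM in spermine 3 h and 8.09 and 7.69 FPKM in spermine 0 h, against 0.607 and 0.889 FPKM in PBS 3 h and 3.73 and 4.68 FPKM in PBS 0 h. Spermine libraries stood above PBS libraries at each time, and 3 h libraries stood below 0 h libraries in each treatment. It was 2.72-fold lower with IFN-β in spermine (log2 change -1.19 ± 0.12, adjusted p = 0.000304) and 5.62-fold lower with IFN-β in PBS (-1.57 ± 0.12, adjusted p = 4.75e-05). Spermine raised it 3.88-fold at 3 h (1.16 ± 0.12, adjusted p = 0.00049) and 1.88-fold at 0 h (0.78 ± 0.12, adjusted p = 0.00253).

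Cdkn1b, which encodes the CDK inhibitor p27 (chr6:134920401-134925513, plus strand), had 8.53 and 8.03 FPKM in spermine 3 h and 11.4 and 10.6 FPKM in spermine 0 h, against 7.26 and 6.19 FPKM in PBS 3 h and 13.8 and 14.8 FPKM in PBS 0 h. No libraries of different groups overlapped, and the highest were those of PBS 0 h. It was 1.33-fold lower with IFN-β in spermine (log2 change -0.37 ± 0.09, adjusted p = 0.0157) and 2.13-fold lower with IFN-β in PBS (-0.99 ± 0.09, adjusted p = 0.000119). The fall with spermine at 0 h was 1.30-fold (-0.35 ± 0.09, adjusted p = 0.0218). Both smaller changes were lost in 3 of the 8 fits that each leave out a library. With IFN-β in spermine these were the fits without spermine 3 h replicate 1 (log2 change -0.41), spermine 3 h replicate 2 (-0.34) or spermine 0 h replicate 1 (-0.33). For spermine at 0 h they were the fits without spermine 0 h replicate 2 (-0.30), PBS 0 h replicate 1 (-0.39) or PBS 0 h replicate 2 (-0.30).

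**Figure D3:**
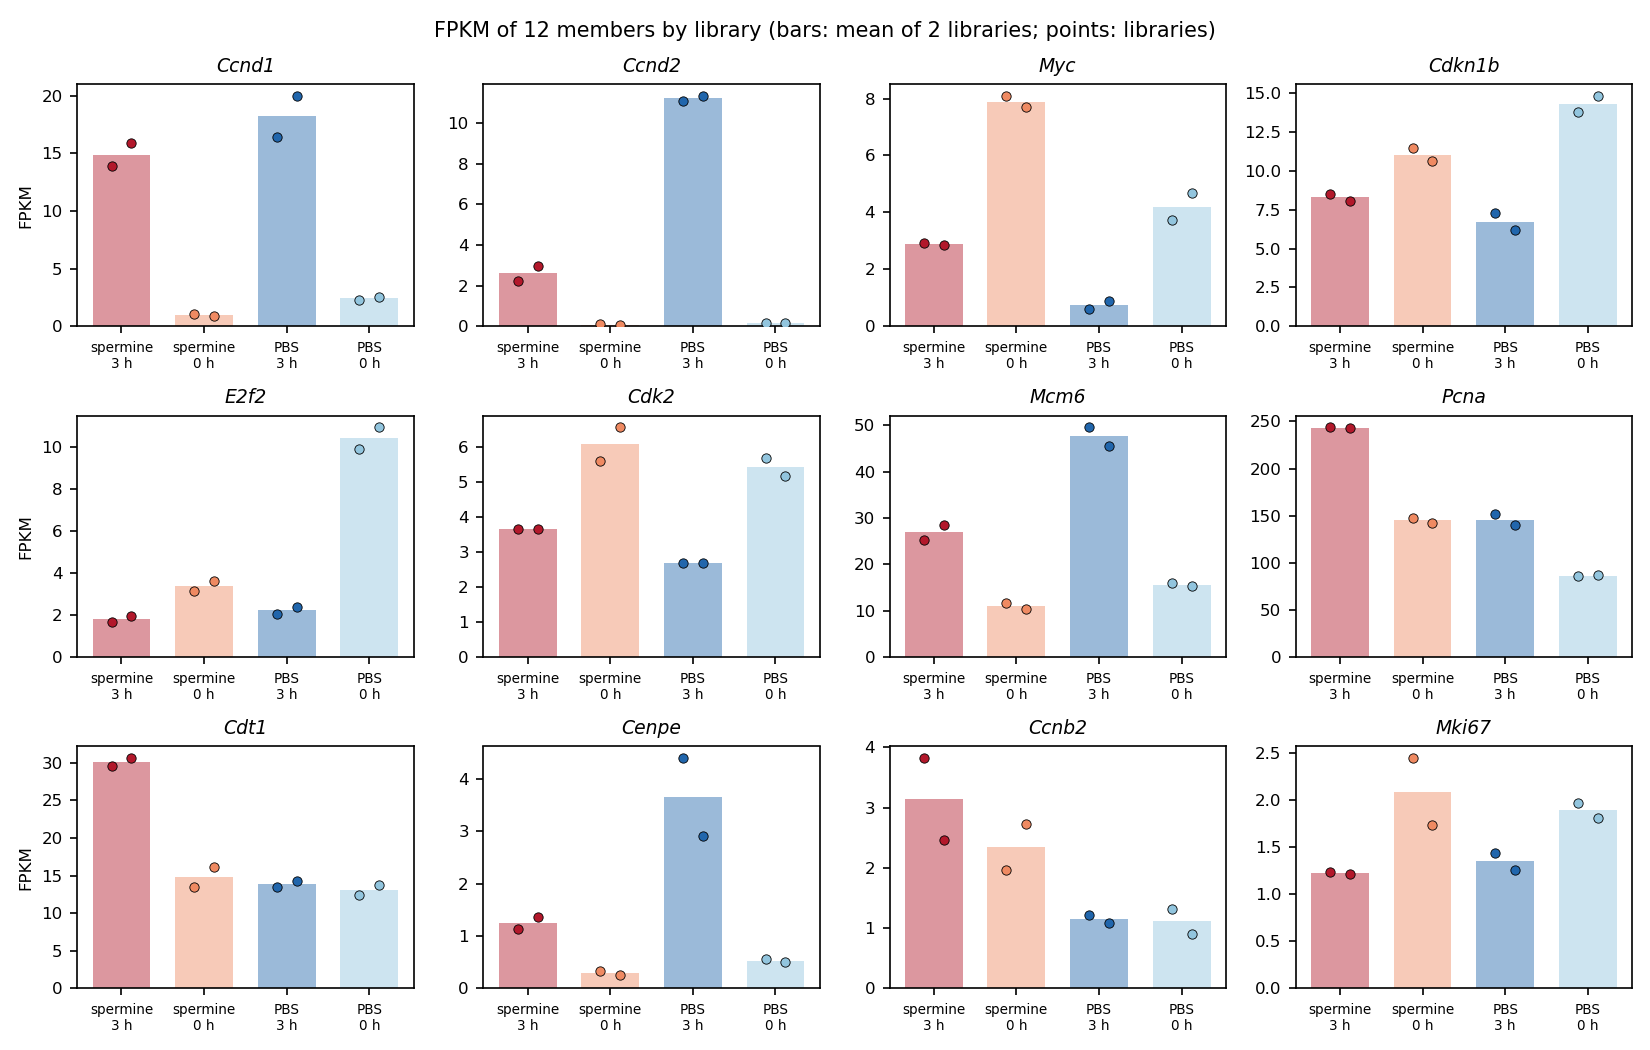
FPKM of 12 members in the 4 groups; bars are means of 2 libraries, points are libraries, and every axis starts at 0 with its own scale. Ccnd2 is high only in the 3 h libraries and lower in spermine 3 h than in PBS 3 h, E2f2 is high in PBS 0 h, Cdt1 is high in spermine 3 h, and Myc is higher in spermine than in PBS at each time.

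Of the genes of the G1/S step, the E2F factors E2f2 and E2f1 and the kinase Cdk2 fell with IFN-β in PBS, and the low cyclins Ccne1 and Ccne2 rose there, with calls that depended on the processing. E2f2, an activator of DNA synthesis genes (chr4:136172394-136196057, plus strand), had 1.67 and 1.98 FPKM in spermine 3 h and 3.13 and 3.65 FPKM in spermine 0 h, against 2.07 and 2.41 FPKM in PBS 3 h and 9.88 and 10.9 FPKM in PBS 0 h. Only PBS 0 h libraries had a high level. E2f2 was 1.86-fold lower with IFN-β in spermine (log2 change -0.64 ± 0.11, adjusted p = 0.00348), 4.65-fold lower with IFN-β in PBS (-1.82 ± 0.11, adjusted p = 1.32e-05) and 3.07-fold lower with spermine at 0 h (-1.38 ± 0.11, adjusted p = 0.000145). At 3 h the log2 difference between spermine and PBS was -0.20 and did not pass (adjusted p = 0.184).

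E2f1, a related activator, had 3.30 and 3.08 FPKM in spermine 3 h and 3.64 and 4.57 FPKM in spermine 0 h, against 3.09 and 3.53 FPKM in PBS 3 h and 5.08 and 5.44 FPKM in PBS 0 h. It fell with IFN-β in PBS (log2 change -0.54 ± 0.11, adjusted p = 0.00594), and its log2 changes of -0.28 with IFN-β in spermine, -0.30 for spermine at 0 h and -0.04 for spermine at 3 h did not pass, the first 2 of which passed on the TPM scale (-0.63 and -0.67). Cdk2, the kinase of cyclin E (chr10:128697939-128705031, minus strand), had 3.66 and 3.64 FPKM in spermine 3 h and 5.58 and 6.56 FPKM in spermine 0 h, against 2.67 and 2.69 FPKM in PBS 3 h and 5.67 and 5.17 FPKM in PBS 0 h. The 3 h libraries lay below the 0 h libraries in each treatment. Cdk2 was 1.66-fold lower with IFN-β in spermine (log2 change -0.60 ± 0.09, adjusted p = 0.00211) and 2.02-fold lower with IFN-β in PBS (-0.80 ± 0.09, adjusted p = 0.000341). It was 1.36-fold higher with spermine at 3 h (0.34 ± 0.09, adjusted p = 0.024). This last call was lost without any 1 of the 4 libraries compared (log2 change 0.34 in each), without the filter on low values and on the TPM scale (0.21).

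Cyclins E1 and E2 partner Cdk2 at the start of S phase and were near 1 FPKM. Ccne1 had 0.939 and 0.887 FPKM in spermine 3 h and 0.998 and 0.392 FPKM in spermine 0 h, against 1.24 and 1.56 FPKM in PBS 3 h and 0.607 and 0.541 FPKM in PBS 0 h. Ccne2 had 0.919 and 1.35 FPKM in spermine 3 h and 0.985 and 0.944 FPKM in spermine 0 h, against 1.25 and 0.708 FPKM in PBS 3 h and 0.387 and 0.241 FPKM in PBS 0 h. For both genes the PBS 0 h libraries were below the PBS 3 h libraries, and the spermine libraries of the 2 times overlapped. With IFN-β in PBS the log2 change was 0.60 ± 0.18 for Ccne1 (adjusted p = 0.0284) and 0.58 ± 0.17 for Ccne2 (adjusted p = 0.0279), and Ccne2 also rose with spermine at 0 h (0.58 ± 0.17, adjusted p = 0.033). Ccne1 reached 1 FPKM only in PBS 3 h, and Ccne2 in 1 library of each 3 h group, so both entered the test through groups in which they were high. The Ccne1 call was lost without any 1 of the 4 PBS libraries (log2 changes between 0.51 and 0.70), without the filter on low values and on the TPM scale. The Ccne2 call with IFN-β failed without PBS 3 h replicate 1 (0.38), PBS 0 h replicate 1 (0.66) or PBS 0 h replicate 2 (0.50), without the filter, under quantile normalization and with only the 2 groups compared. Its call with spermine at 0 h failed without any 1 of the 4 libraries compared (between 0.50 and 0.66) and without the filter. Ints8, at up to 4.26 FPKM, overlaps Ccne2 on the other strand.

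Among the 8 tested licensing and fork genes, Pcna, Mcm6 and Cdt1 passed and the other 5, all helicase subunits, passed in no comparison on the deposited scale. Pcna (chr2:132249162-132253314, minus strand) had 244 and 243 FPKM in spermine 3 h and 148 and 143 FPKM in spermine 0 h, against 152 and 139.8 FPKM in PBS 3 h and 86.2 and 87.2 FPKM in PBS 0 h. Levels were highest with spermine and IFN-β together, and spermine alone and IFN-β alone gave overlapping levels. Pcna was 1.68-fold higher with IFN-β in spermine (log2 change 0.74 ± 0.06, adjusted p = 0.000129) and also 1.68-fold higher with IFN-β in PBS (0.74 ± 0.06, adjusted p = 8.1e-05). Spermine raised it 1.67-fold at 3 h (0.74 ± 0.06, adjusted p = 0.00023) and at 0 h (0.74 ± 0.06, adjusted p = 0.000213). Under quantile normalization the rises with IFN-β did not pass and shrank to log2 changes of 0.16 in spermine and 0.08 in PBS. A processed copy, Pcna-ps2, had at most 4.26 FPKM.

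Cdt1 (chr8:122568015-122573554, plus strand) had 29.6 and 30.6 FPKM in spermine 3 h and 13.4 and 16.1 FPKM in spermine 0 h, against 13.4 and 14.3 FPKM in PBS 3 h and 12.5 and 13.7 FPKM in PBS 0 h. The spermine 3 h libraries stood apart, and the other 3 groups overlapped. Cdt1 was 2.04-fold higher with IFN-β in spermine (log2 change 0.98 ± 0.10, adjusted p = 0.000295) and 2.17-fold higher with spermine at 3 h (1.07 ± 0.10, adjusted p = 0.000317). Its log2 change was 0.08 ± 0.10 with IFN-β in PBS (adjusted p = 0.561) and 0.16 ± 0.10 with spermine at 0 h (adjusted p = 0.243). It fell with IFN-β in PBS on the TPM scale (-0.38, adjusted p = 0.0111). Its loading partner Cdc6 was between 0.0411 and 0.326 FPKM in the 8 libraries and was not tested. Gm20388, which the annotation places over Cdt1 on the same strand, is listed at 0 in every library.

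Mcm6 (chr1:128331590-128359664, minus strand) had 25.4 and 28.5 FPKM in spermine 3 h and 11.6 and 10.4 FPKM in spermine 0 h, against 49.6 and 45.5 FPKM in PBS 3 h and 15.9 and 15.4 FPKM in PBS 0 h. No libraries of different groups overlapped. It was 2.45-fold higher with IFN-β in spermine (log2 change 1.22 ± 0.09, adjusted p = 6.4e-05) and 3.04-fold higher with IFN-β in PBS (1.54 ± 0.09, adjusted p = 1.2e-05). Spermine lowered it 1.77-fold at 3 h (-0.80 ± 0.09, adjusted p = 0.0007) and 1.42-fold at 0 h (-0.47 ± 0.09, adjusted p = 0.00597), and all 4 calls held in every alternative run.

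The helicase is a ring with Mcm2 to Mcm7 as its subunits, and Mcm6 stood apart from its partners. Mcm2 had 1.15 and 0.960 FPKM in spermine 3 h and 1.23 and 1.12 FPKM in spermine 0 h, against 0.742 and 1.09 FPKM in PBS 3 h and 1.28 and 1.45 FPKM in PBS 0 h. Mcm5 had 2.40 and 2.45 FPKM in spermine 3 h and 1.72 and 2.15 FPKM in spermine 0 h, against 1.97 and 2.31 FPKM in PBS 3 h and 1.59 and 1.74 FPKM in PBS 0 h. These are differences of less than 1 FPKM, and the pairwise log2 changes of Mcm2, Mcm3, Mcm4, Mcm5 and Mcm7 lay between -0.41 and 0.24. The mean of those 5 subunits was 2.84 ± 0.0861 FPKM in spermine 3 h, 2.86 ± 0.162 FPKM in spermine 0 h, 3.09 ± 0.135 FPKM in PBS 3 h and 3.20 ± 0.228 FPKM in PBS 0 h. The ratio of Mcm6 to that mean was 9.51 ± 1.08 in spermine 3 h, 3.84 ± 0.0975 in spermine 0 h, 15.4 ± 1.60 in PBS 3 h and 4.91 ± 0.478 in PBS 0 h (SD, n = 2 each). That ratio stays the same when a whole library is multiplied by 1 factor, as for TPM, whereas the calls of the partners are not. Mcm3 fell on the TPM scale in all 4 pairwise comparisons (between -0.71 and -0.43), Mcm7 with IFN-β in both treatments, Mcm4 with spermine at both times and Mcm2 with IFN-β in PBS, and Mcm5 passed in none. Mcm7 overlaps Cops6, at up to 21.1 FPKM, on the other strand, so its level is uncertain.

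**Figure D4:**
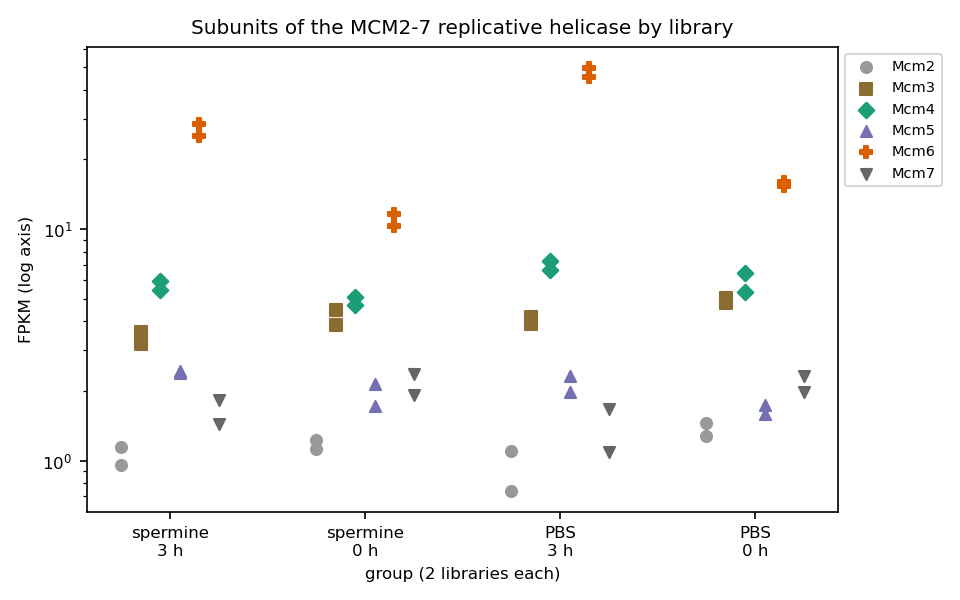
FPKM (log axis) of the 6 subunits of the MCM helicase in the 4 groups, with 2 points per subunit and group, 1 for each library. Mcm6 lies above all other subunits in every library and is highest in PBS 3 h at 49.6 and 45.5 FPKM, while the mean of the other 5, averaged by group, stays between 2.84 and 3.20 FPKM.

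Genes of DNA precursor supply were low and passed in no comparison on the deposited scale. Rrm1 and Rrm2 encode the subunits of ribonucleotide reductase. Rrm2 had 0.799 and 0.511 FPKM in spermine 3 h and 0.850 and 0.754 FPKM in spermine 0 h, against 0.569 and 0.558 FPKM in PBS 3 h and 0.851 and 0.609 FPKM in PBS 0 h. Rrm1 ranged from 1.44 to 2.47 FPKM, with pairwise log2 changes between -0.28 and 0.21. Thymidine kinase Tk1 ranged from 0.519 to 1.09 FPKM and thymidylate synthase Tyms from 0.0892 to 0.494 FPKM. Of these 4 genes, Rrm1 and Tk1 were tested, and on the TPM scale Tk1 fell with IFN-β in PBS (-0.85, adjusted p = 0.0138) and both fell with spermine at 0 h (-0.68 for Rrm1 and -0.78 for Tk1). Tk1 reached 1 FPKM only in PBS 0 h (1.06 and 1.09 FPKM), so it entered the test through the group in which it was high.

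Of the 15 genes of G2 and mitosis 9 were tested, and only Cenpe and Ccnb2 changed by more than 0.5 on the log2 scale in a comparison with an adjusted p under 0.01 on the deposited scale. Mki67, which encodes the proliferation marker Ki-67, had 1.23 and 1.22 FPKM in spermine 3 h and 2.45 and 1.73 FPKM in spermine 0 h, against 1.44 and 1.26 FPKM in PBS 3 h and 1.97 and 1.81 FPKM in PBS 0 h. The 3 h libraries were below the 0 h libraries in each treatment. Its log2 change was -0.46 ± 0.13 with IFN-β in spermine (adjusted p = 0.0264) and -0.30 ± 0.13 with IFN-β in PBS, which did not pass (adjusted p = 0.0934), though it did on the TPM scale (-0.81, adjusted p = 0.00491). The call in spermine was lost without spermine 3 h replicate 1 (-0.47), spermine 3 h replicate 2 (-0.46) or spermine 0 h replicate 1 (-0.29), without the filter and with only the 2 groups compared. Between spermine and PBS the log2 difference was -0.08 at 3 h and 0.09 at 0 h, and neither passed.

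Top2a, the topoisomerase that untangles replicated DNA, had 1.21 and 1.25 FPKM in spermine 3 h and 1.27 and 0.903 FPKM in spermine 0 h, against 2.07 and 1.59 FPKM in PBS 3 h and 1.27 and 1.19 FPKM in PBS 0 h. Its highest libraries were those of PBS 3 h, with a log2 change of 0.34 ± 0.13 with IFN-β in PBS that did not pass (adjusted p = 0.0701) but did under quantile normalization (0.37, adjusted p = 0.0427). With spermine at 3 h it passed only on the TPM scale among the rescalings (-0.62, adjusted p = 0.0334). Cdk1, the kinase that drives entry into mitosis, had 1.43 and 1.45 FPKM in spermine 3 h and 0.820 and 0.858 FPKM in spermine 0 h, against 1.55 and 1.28 FPKM in PBS 3 h and 1.61 and 1.45 FPKM in PBS 0 h. Only spermine 0 h stood below the other groups. Cdk1 was lower with spermine at 0 h (log2 change -0.46 ± 0.10, adjusted p = 0.0115) and higher with IFN-β in spermine (0.41 ± 0.10, adjusted p = 0.0179). The first of these calls was lost without spermine 0 h replicate 1 (-0.44) or PBS 0 h replicate 1 (-0.41), and the other without any 1 of the 4 spermine libraries (between 0.39 and 0.42), without the filter and on the TPM scale.

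Ccnb1 and Ccnb2 encode cyclins B, partners of Cdk1. Ccnb1 had 0.796 and 0.352 FPKM in spermine 3 h and 0.530 and 0.600 FPKM in spermine 0 h, against 1.07 and 0.866 FPKM in PBS 3 h and 0.373 and 0.400 FPKM in PBS 0 h, and was not tested. In the fit without a filter its log2 change with IFN-β in PBS was 0.50 (adjusted p = 0.0647). Ccnb2 (chr9:70407692-70421547, minus strand) had 3.82 and 2.47 FPKM in spermine 3 h and 1.97 and 2.73 FPKM in spermine 0 h, against 1.22 and 1.09 FPKM in PBS 3 h and 1.31 and 0.907 FPKM in PBS 0 h. All 4 spermine libraries lay above all 4 PBS libraries. Ccnb2 was 2.73-fold higher with spermine at 3 h (log2 change 0.93 ± 0.19, adjusted p = 0.0091) and 2.12-fold higher at 0 h (0.66 ± 0.19, adjusted p = 0.031). The call at 3 h was lost without spermine 3 h replicate 1 (0.69), and the call at 0 h without spermine 0 h replicate 2 (0.50), PBS 0 h replicate 1 (0.80) or PBS 0 h replicate 2 (0.53), without the filter on low values (0.66) and on the TPM scale (0.63).

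Cenpe, a kinesin that links chromosomes to spindle microtubules (chr3:135212537-135273611, plus strand), had 1.13 and 1.35 FPKM in spermine 3 h and 0.329 and 0.255 FPKM in spermine 0 h, against 4.40 and 2.90 FPKM in PBS 3 h and 0.552 and 0.501 FPKM in PBS 0 h. Its reads numbered 136 and 173 in spermine 3 h, 47 and 40 in spermine 0 h, 529 and 404 in PBS 3 h, and 109 and 87 in PBS 0 h. No libraries of different groups overlapped, and PBS 3 h was the highest. Cenpe reached 1 FPKM only in 3 h libraries, so it entered the test through the groups in which it was high. Mean FPKM was 4.24-fold higher with IFN-β in spermine (log2 change 0.79 ± 0.16, adjusted p = 0.00814) and 6.93-fold higher with IFN-β in PBS (1.59 ± 0.16, adjusted p = 0.000207). At 3 h it was 2.94-fold lower in spermine than in PBS (-1.04 ± 0.16, adjusted p = 0.00286). The rise in spermine was lost without spermine 3 h replicate 2 (0.72).

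Of the remaining mitotic genes, the spindle kinesin Kif11 had 0.607 and 0.630 FPKM in spermine 3 h and 0.476 and 0.468 FPKM in spermine 0 h, against 1.16 and 1.22 FPKM in PBS 3 h and 0.843 and 1.01 FPKM in PBS 0 h. It was lower in all 4 spermine libraries than in all 4 PBS libraries, with log2 changes of -0.44 ± 0.11 at 3 h (adjusted p = 0.0166) and -0.39 ± 0.11 at 0 h (adjusted p = 0.0257). Kif11 reached 1 FPKM only in PBS libraries, so it entered the test through the groups in which it was high. The call at 3 h was lost without either spermine 3 h library (-0.43 and -0.45) or PBS 3 h replicate 2 (-0.42), and the call at 0 h without any 1 of the 4 libraries compared (between -0.45 and -0.32) and under quantile normalization. The checkpoint kinase Bub1b had 0.369 and 0.709 FPKM in PBS 3 h, against 1.11 and 1.29 FPKM in PBS 0 h, a log2 change of -0.52 ± 0.15 (adjusted p = 0.0228). That call did not hold without PBS 3 h replicate 1 (-0.36), PBS 0 h replicate 1 (-0.58) or PBS 0 h replicate 2 (-0.47) or without the filter, and in spermine Bub1b ranged from 0.773 to 0.902 FPKM at 3 h and from 0.875 to 1.16 FPKM at 0 h. Bub1b reached 1 FPKM only in 0 h libraries, so it too entered the test through libraries in which it was high. Aurka and Cdc20 ranged from 0.912 to 1.67 FPKM and from 0.505 to 1.20 FPKM, and neither passed in any comparison. The untested Ccna2, Aurkb, Plk1, Bub1 and Birc5 lay between 0.165 and 1.39 FPKM in the 8 libraries. On the other strand Elovl1, at up to 67.6 FPKM, overlaps Cdc20, and Exosc9, at up to 5.87 FPKM, overlaps Ccna2. The levels of Cdc20 and Ccna2 are therefore uncertain.

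The IFN-β response differed between spermine and PBS for 4 members. Upward differences of Cdt1, E2f2 and Cdkn1b are 3 of 31 members, where 5.82% of all genes tested differed upward, and Ccnd2 was the 1 member that differed downward, where 7.75% of all genes did. For Ccnd2 the response was smaller in spermine, with a log2 difference of -1.67 ± 0.17 (adjusted p = 0.00285). For Cdt1 the rise was seen in spermine and the difference was 0.91 ± 0.14 (adjusted p = 0.00962). E2f2 fell less in spermine, with a difference of 1.18 ± 0.15 (adjusted p = 0.00565), and its level at 0 h was already lower there. Cdkn1b also fell less in spermine, with a difference of 0.61 ± 0.13 (adjusted p = 0.0255). The Ccnd2 difference did not pass with voom on rebuilt reads (-1.16, adjusted p = 0.167). The Cdkn1b difference was lost in 6 of the 8 fits that each leave out a library, those without any 1 of the 4 spermine libraries or the 2 PBS 0 h libraries (between 0.57 and 0.66), and without the filter. The responses of Ccnd1 (0.53, adjusted p = 0.0817), Cenpe (-0.80, adjusted p = 0.0681), Cdk1 (0.48, adjusted p = 0.0779) and Mcm6 (-0.32, adjusted p = 0.145) were not shown to differ, although Ccnd1 and Cdk1 passed on the TPM scale, and for Pcna the difference was 0.00 ± 0.09 (adjusted p = 0.998).

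Other genes of the same pathways were taken from 10 lists of 166 genes, of which 111 were tested. With IFN-β in spermine 29 rose and 22 fell, or 45.9%, and with IFN-β in PBS 35 rose and 22 fell, or 51.4%. Spermine raised 28 and lowered 28 at 3 h, or 50.5%, and raised 30 and lowered 18 at 0 h, or 43.2%. Of all genes tested, 41.7%, 49.6%, 40.5% and 41.2% passed in the same 4 comparisons, so that the share was furthest above the background for spermine at 3 h. By direction, 19.7%, 24.6%, 19.9% and 22% of all genes rose in that order. Falls made up 22.1%, 25%, 20.6% and 19.2%. These shares are the background for the counts of each list below. The lists were chosen with earlier results of these data known, so a count above the background is no independent support. The counts up and down of the listed genes become, on the TPM scale, 19 and 41, 24 and 57, 23 and 41, and 20 and 43 in that order.

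Of 12 tested CDK inhibitors and antiproliferative genes outside the members, 8 rose and 0 fell with spermine at 3 h, where 19.9% of all genes rose, and 8 rose and 0 fell with spermine at 0 h, where 22% did. The other 4 did not pass at that time, and the median log2 change over the 12 was 1.21 at 3 h and 1.42 at 0 h, against -0.00 and 0.01 for all genes. This list, like the others, was chosen with earlier results of these data known. With IFN-β 5 rose and 3 fell in spermine, and likewise 5 and 3 in PBS. On the TPM scale spermine raised 7 and lowered 0 at 3 h, and raised 8 and lowered 0 at 0 h. With IFN-β 5 rose and 4 fell in spermine and 3 rose and 5 fell in PBS on that scale. The share of all genes on that scale is not given. Cdkn1a, which encodes the CDK inhibitor p21, had 638 and 628 FPKM in spermine 3 h and 147 and 159 FPKM in spermine 0 h, against 295 and 323 FPKM in PBS 3 h and 48.9 and 53.1 FPKM in PBS 0 h. It thus stood far above its relative Cdkn1b, moved the other way with IFN-β and rose in all 4 pairwise comparisons, with log2 changes of 2.04 with IFN-β in spermine, 2.57 with IFN-β in PBS, 1.03 with spermine at 3 h and 1.57 with spermine at 0 h. Cdkn2b, which encodes the Cdk4 and Cdk6 inhibitor p15, had 3.13 and 2.09 FPKM in spermine 3 h and 8.21 and 9.81 FPKM in spermine 0 h, against 0.206 and 0.178 FPKM in PBS 3 h and 0.283 and 0.607 FPKM in PBS 0 h. Spermine raised it at each time, by a log2 change of 1.58 at 3 h and 2.80 at 0 h. Tob1, an antiproliferative protein, had 44.8 and 37.4 FPKM in spermine 3 h, against 4.67 and 4.57 FPKM in PBS 3 h.

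Among 26 tested origin and fork genes outside the members, 6 rose and 4 fell with IFN-β in spermine, and 9 rose and 3 fell with IFN-β in PBS. Spermine raised 1 and lowered 9 at 3 h, where 19.9% of all genes rose and 20.6% fell. At 0 h it raised 2 and lowered 6, where 22% of all genes rose and 19.2% fell. On the TPM scale the counts with IFN-β were 3 up and 8 down in spermine and 5 up and 14 down in PBS. With spermine they were 1 up and 15 down at 3 h and 1 up and 13 down at 0 h. These counts too have no share of all genes beside them. Rfc3, a subunit of the loader that places Pcna on DNA, had 4.47 and 5.00 FPKM in spermine 3 h and 1.32 and 1.32 FPKM in spermine 0 h, against 7.64 and 7.89 FPKM in PBS 3 h and 2.08 and 1.61 FPKM in PBS 0 h. Its order of groups, highest in PBS 3 h and lowest in spermine 0 h, was that of Mcm6. Mcm10, a further replication factor, had 0.965 and 0.973 FPKM in spermine 3 h and 0.424 and 0.386 FPKM in spermine 0 h, against 2.28 and 1.92 FPKM in PBS 3 h and 0.193 and 0.194 FPKM in PBS 0 h.

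Of 17 tested genes of the spindle, kinetochore and cytokinesis list, which holds 42, 2 rose and 1 fell with IFN-β in spermine, and 4 rose and 1 fell with IFN-β in PBS. Spermine raised 4 and lowered 4 at 3 h, and raised 3 and lowered 0 at 0 h. These counts become, on the TPM scale, 2 up and 3 down and 3 up and 6 down with IFN-β, and 4 up and 6 down and 2 up and 8 down with spermine. Tpx2, a spindle assembly factor, had 9.77 and 9.98 FPKM in spermine 3 h and 1.67 and 1.68 FPKM in spermine 0 h, against 16.8 and 14.7 FPKM in PBS 3 h and 1.66 and 1.62 FPKM in PBS 0 h. It rose by a log2 change of 2.02 with IFN-β in spermine and 2.66 with IFN-β in PBS. Ccnf, which encodes cyclin F, had 6.08 and 4.44 FPKM in spermine 3 h and 4.87 and 5.69 FPKM in spermine 0 h, against 0.948 and 0.499 FPKM in PBS 3 h and 0.859 and 1.20 FPKM in PBS 0 h, the same side of PBS as Ccnb2.

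For DNA precursors, 8 of 10 listed genes were tested, with 2 up and 0 down with IFN-β in spermine and 4 up and 1 down with IFN-β in PBS. Spermine raised 0 and lowered 1 at 3 h, and raised 2 and lowered 2 at 0 h, and on the TPM scale each count stays within 1 of these. Samhd1, which breaks down deoxynucleotides, had 278 and 288 FPKM in spermine 3 h and 23.8 and 23.7 FPKM in spermine 0 h, against 448 and 412 FPKM in PBS 3 h and 28.9 and 27.5 FPKM in PBS 0 h. Dck, a salvage kinase for deoxynucleosides, had 164 and 157 FPKM in spermine 3 h and 21.1 and 21.3 FPKM in spermine 0 h, against 175 and 153 FPKM in PBS 3 h and 6.16 and 5.43 FPKM in PBS 0 h. Both stood above the members of that role, which did not exceed 2.47 FPKM, though Dck came nearest to them in PBS 0 h.

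Of 13 tested genes of the E2F, pocket protein and MuvB list, 3 rose and 5 fell with IFN-β in spermine, and likewise 3 and 5 in PBS. Spermine raised 3 and lowered 5 at 3 h, and raised 4 and lowered 3 at 0 h. When rescaled to TPM, 2 rose and 9 fell with IFN-β in spermine, 3 rose and 9 fell with IFN-β in PBS, 3 rose and 6 fell with spermine at 3 h, and 3 rose and 5 fell with spermine at 0 h. Rbl1, which encodes the pocket protein p107, had 11.2 and 12.4 FPKM in spermine 3 h and 1.84 and 1.23 FPKM in spermine 0 h, against 26.3 and 21.6 FPKM in PBS 3 h and 2.20 and 2.15 FPKM in PBS 0 h. It rose by a log2 change of 2.34 with IFN-β in spermine and 2.97 with IFN-β in PBS, while E2f2 fell. E2f3 had 3.84 and 3.59 FPKM in spermine 3 h and 8.60 and 7.94 FPKM in spermine 0 h, against 2.06 and 1.71 FPKM in PBS 3 h and 4.16 and 4.21 FPKM in PBS 0 h. It was higher in spermine than in PBS at each time, where E2f2 was lower at 0 h.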

How the data were processed

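Whole RNA of 8 libraries of mouse bone marrow derived macrophages was sequenced. The labels name PBS where the series text names DMSO as the control, and they are followed here. The authors deposited FPKM values and a gene length for each gene. Per the submitters' processing notes, the tools were DESeq2 1.20.0, featureCounts 1.5.0-p3, HISAT2 2.0.5, fastp and CASAVA 1.8, on GRCm38 (mm10); their settings, and whether strand was counted, are not stated there. Multiplied by length and divided by 1 step per library, every FPKM gave a whole read within 0.001; the step holds the median gene steady rather than the library total.

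Genes with at least 1 FPKM in at least 2 libraries (11421) were tested on log2(FPKM + 1) with limma 3.58.1 in R 4.3.3, with 4 group means over the 8 libraries, an intensity trend, 4 residual and 2.83 prior degrees of freedom, and Benjamini-Hochberg adjustment over all 11421 genes in each of 5 comparisons, which share libraries with each other. Tests are two-sided. A log2 change on this scale understates changes of low genes, so ratios of mean FPKM are given beside it. Reported errors of log2 changes are standard errors. On simulated data for IFN-β in PBS, over 11421 genes, the procedure called 77 of 100 genes changed by 1 and 96 of 100 changed by 2 on the log2 scale, and 10 of 11221 unchanged ones. In the deposited data 49.6% of all genes passed in that comparison. How the procedure performs with so many changed genes was not tested. The simulation gave all genes the same fixed dispersion, which was not estimated from these libraries, and its counts depend on that setting.

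Every member is accounted for. Values in each library are given for the 6 passing members of largest change in each comparison, for all that passed in the difference of responses, and for 12 members shown in any case. Of 10 further lists (E2F and pocket proteins, CDK inhibitors, checkpoint, origin and fork, deoxynucleotides, mitosis, chromatin duplication, Myc network, G1 cyclin turnover, growth factors), passing genes of largest change are named. Members, lists and markers were chosen with earlier results of these data known. Alternatives were no filter, a stricter filter, a pseudocount of 0.1, TPM, quantile normalization, no intensity trend, voom on rebuilt reads, only the 2 groups compared, a replicate block and leaving out each library. Promoters were searched with Python 3.11.15.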

Additional observations from a re-analysis of the deposited data

Results flagged for a closer look

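For 4 members the change with IFN-β itself differed between spermine and PBS, by the test of that difference in limma with Benjamini-Hochberg adjustment over 11421 genes. The log2 difference, spermine minus PBS, was 0.91 for Cdt1 (adjusted p = 0.00962), 0.61 for Cdkn1b (adjusted p = 0.0255), 1.18 for E2f2 (adjusted p = 0.00565) and -1.67 for Ccnd2 (adjusted p = 0.00285). This is 12.9% of the members tested, against 13.6% of all genes tested. With 2 libraries in each group, no library could be examined for standing apart from the rest of its group.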

How the results depend on the processing

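Of 53 calls of members in the 5 comparisons, 30 held under every alternative, 20 were lost without at least 1 library, and no called change reversed. On the TPM scale 9 members fell with IFN-β in spermine, 14 with IFN-β in PBS, 14 with spermine at 0 h and 10 with spermine at 3 h, and 5 differed upward between the responses. No share of all genes on that scale is given beside these counts. Without a filter 2 members rose with spermine at 0 h. With voom 5 members differed upward and 0 downward between the responses. With each library left out in turn, 5 to 8 members rose and 3 to 6 fell with IFN-β in spermine, and 5 to 8 rose and 5 to 9 fell with IFN-β in PBS. Likewise 3 to 5 rose and 4 to 5 fell with spermine at 3 h, 2 to 4 rose and 4 to 8 fell with spermine at 0 h, and 2 to 4 differed upward and 1 to 2 downward. The cause of these shifts was not tested.

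The labels name the libraries of every group BM1 and BM2, and whether a number marks a shared source is not stated. The main fit treated them as unpaired. Deviations of same-numbered libraries correlated between 0.229 and 0.371 for the 3 pairs among spermine 0 h, PBS 3 h and PBS 0 h, and between -0.126 and -0.0615 for the 3 pairs with spermine 3 h, so a shared source was neither established nor excluded. With a replicate block the members called were 13 with IFN-β in spermine, 14 with IFN-β in PBS, 11 with spermine at 3 h, 12 with spermine at 0 h and 4 in the difference, against 13, 14, 10, 12 and 4 without it, and the genes called rose in each comparison (5956 against 5661 with IFN-β in PBS). With the numbers of spermine 3 h crossed, an alternative chosen after seeing the data, the block called 14 members and 5866 genes with IFN-β in spermine. Depth limits the lowest members, of which Cdc6 had as few as 3 reads.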

Other observations

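All genes tested are the background for each list in this section. With IFN-β 19.7% of them rose and 22.1% fell in spermine, and 24.6% rose and 25% fell in PBS. With spermine 19.9% rose and 20.6% fell at 3 h, and 22% rose and 19.2% fell at 0 h. Of 8 tested genes of the Myc network, 3 rose and 4 fell with IFN-β in spermine, and 3 rose and 3 fell with IFN-β in PBS. Spermine raised 3 and lowered 3 at 3 h, and raised 3 and lowered 2 at 0 h. On the TPM scale the same 4 counts were 2 up and 5 down, 2 up and 5 down, 2 up and 4 down, and 1 up and 4 down. Mxd1, which competes with Myc for its partner Max, had 129 and 130.4 FPKM in spermine 3 h and 3.12 and 3.40 FPKM in spermine 0 h, against 103 and 106 FPKM in PBS 3 h and 2.25 and 2.26 FPKM in PBS 0 h. Its log2 change was 4.94 with IFN-β in spermine and 5.01 with IFN-β in PBS. Mnt, another repressor that pairs with Max, had 7.41 and 7.11 FPKM in spermine 3 h and 12.6 and 16.2 FPKM in spermine 0 h, against 1.42 and 1.93 FPKM in PBS 3 h and 12.2 and 14.3 FPKM in PBS 0 h. It fell less with IFN-β in spermine than in PBS, with a log2 difference of 1.53 (limma, adjusted p = 0.00646).

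Of 7 tested macrophage growth factor and receptor genes, 3 rose and 1 fell with IFN-β in spermine, 2 rose and 1 fell with IFN-β in PBS, 0 rose and 3 fell with spermine at 3 h, and 1 rose and 2 fell with spermine at 0 h. Rescaled to TPM, 2 rose and 3 fell, 2 rose and 4 fell, 0 rose and 4 fell, and 1 rose and 5 fell in that order. Csf1, which encodes the growth factor of macrophages, had 24.5 and 26.4 FPKM in spermine 3 h and 7.03 and 6.51 FPKM in spermine 0 h, against 32.1 and 32.2 FPKM in PBS 3 h and 1.29 and 1.04 FPKM in PBS 0 h. Its rise with IFN-β was smaller in spermine, with a log2 difference of -2.17 (limma, adjusted p = 0.00122), and spermine raised it at 0 h by a log2 change of 1.84.

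Of 7 tested checkpoint genes, 2 rose and 1 fell with IFN-β in spermine, 3 rose and 2 fell with IFN-β in PBS, 3 rose and 2 fell with spermine at 3 h, and 2 rose and 3 fell with spermine at 0 h. Mdm2, which restrains p53, had 113 and 114 FPKM in spermine 3 h and 86.3 and 77.0 FPKM in spermine 0 h, against 44.8 and 39.2 FPKM in PBS 3 h and 32.6 and 30.97 FPKM in PBS 0 h. Atm, a kinase of the response to DNA breaks, had 1.31 and 1.54 FPKM in spermine 3 h and 0.823 and 0.590 FPKM in spermine 0 h, against 6.79 and 6.19 FPKM in PBS 3 h and 1.67 and 1.40 FPKM in PBS 0 h. Of 6 tested genes of G1 cyclin turnover, 1 rose and 2 fell with IFN-β in spermine, 2 rose and 3 fell with IFN-β in PBS, 3 rose and 1 fell with spermine at 3 h, and 3 rose and 0 fell with spermine at 0 h. Of 7 tested genes of chromatin duplication, 2 rose and 1 fell with IFN-β in spermine, 0 rose or fell with IFN-β in PBS, 3 rose and 0 fell with spermine at 3 h, and 2 rose and 0 fell with spermine at 0 h. Most of these splits, on the TPM scale, shift downward, for chromatin duplication to 0 up and 6 down with IFN-β in PBS and for G1 cyclin turnover to 0 up and 4 down with IFN-β in spermine. The median of all genes moves downward on that scale too. Among the chromatin genes the maintenance methyltransferase Dnmt1 had 33.4 and 34.9 FPKM in spermine 3 h and 31.4 and 32.1 FPKM in spermine 0 h, against 21.3 and 21.4 FPKM in PBS 3 h and 20.1 and 20.6 FPKM in PBS 0 h.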
